A study of Homo sapiens with 7 samples.

Results

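Transcript levels of 8 transcription factor genes of the foregut endoderm were examined in human β-like cells in which the m6A writer subunit METTL14 was targeted. The genes are HNF4A, HNF4G, FOXA1, FOXA2, GATA4, GATA6, NR5A2 and ONECUT2. They were taken by name, and each matched 1 of the 66025 Ensembl gene IDs in the count table. All 8 passed the filter on low counts, which kept 22926 genes.

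RNA-seq was carried out on insulin-expressing cells sorted at stage 6 of a β-cell differentiation of H1, an established human embryonic stem cell line. The sort used DA-ZP1, a fluorescent probe for the zinc held in insulin granules. The line iKD2 carries an shRNA against METTL14 that doxycycline (Dox) switches on, and the line iSCR carries a scramble shRNA. The groups were iKD2 Dox+ (replicates a, b and c), iKD2 Dox- (b and c) and iSCR Dox+ (a and b), so that 7 libraries were compared in 3 groups. By the study's methods, both lines hold a lentiviral vector and were selected with puromycin. The iKD2 groups share a line and differ in Dox, iKD2 Dox+ and iSCR Dox+ share Dox and differ in line, and iKD2 Dox- and iSCR Dox+ differ in both. The study describes the libraries as independent biological samples. The labels do not say whether each came from its own culture, and if some did not, p-values measure only the spread between these samples.

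FOXA1, FOXA2, GATA4 and GATA6 are pioneer factors, which can bind their sites in closed chromatin and open it for other regulators. They act from definitive endoderm through foregut into liver, pancreas and intestine. HNF4A, HNF4G and NR5A2 are nuclear receptors and ONECUT2 is a cut-homeodomain protein, all of which keep regulating genes in differentiated liver, gut and pancreas. Mutations of HNF4A cause an inherited diabetes of the young.

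Libraries held 14875429 to 20639156 estimated counts, and between 19570 and 23676 genes had at least 1 count. The fewest genes were found in iSCR Dox+ a (19570) and iKD2 Dox+ a (20179), and the other 5 libraries held 21214 or more. Levels are given as CPM, estimated counts scaled to a common library size by TMM, and are listed in the order of the replicate letters. METTL14 had 18.6, 16.3 and 48.9 CPM (iKD2 Dox+), 39.3 and 22.5 CPM (iKD2 Dox-), and 36.0 and 32.0 CPM (iSCR Dox+). The groups overlapped, and the library labelled iKD2 Dox+ c had the highest level of all, so a lower METTL14 mRNA was not detectable (log2 fold change -0.14 against iKD2 Dox- and -0.28 against iSCR Dox+, SE 0.63 in both). INS, the insulin gene, had 11593, 13542 and 11323 CPM (iKD2 Dox+), 17348 and 14584 CPM (iKD2 Dox-), and 22232 and 21426 CPM (iSCR Dox+). The libraries labelled iKD2 Dox+ lay below the scramble libraries by a log2 fold change of -0.85 (edgeR, adjusted p = 4.71e-04). By the same test INS changed by -0.39 between iKD2 Dox+ and iKD2 Dox- (adjusted p = 0.451). Without Dox the iKD2 line already lay below iSCR Dox+, by -0.45 (adjusted p = 0.614). All 10 β-cell markers examined were detected in every library. The 6 pluripotency markers summed to 21.4 to 114 CPM.

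None of the 8 genes was called changed in any comparison by edgeR at an adjusted p under 0.05. The count was 0 of 8 for iKD2 Dox+ against iKD2 Dox-, where 0.0393% of all genes tested were called, and 0 of 8 against iSCR Dox+, where 0.0262% were called. It was also 0 of 8 for iKD2 Dox- against iSCR Dox+ (0.0131% of all genes) and for any difference between the 3 groups (0.048% of all genes). With so few calls over all genes, 0 of 8 does not set these genes apart from the background. At an unadjusted p under 0.05, 0 of 8 genes passed against iKD2 Dox- (3.72% of all genes), 1 of 8 passed against iSCR Dox+ (6.72%), 0 of 8 between iKD2 Dox- and iSCR Dox+ (4.45%) and 0 of 8 in the test of any difference (4.87%). The gene that passed was HNF4A. DESeq2 and limma voom also called 0 of 8 genes in every comparison. Of the 22926 genes tested, DESeq2 called 225, 824 and 495 in the 3 comparisons and limma voom 8, 4 and 2. In sum, the 8 genes took 610 to 653 CPM in iKD2 Dox+, 598 to 825 CPM in iKD2 Dox- and 666 to 856 CPM in iSCR Dox+.

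The intervals show how large a change these libraries leave possible. The 95% confidence interval of the fold lay inside a 2-fold change in either direction for 4 of 8 genes against iKD2 Dox- (HNF4A, FOXA1, FOXA2 and ONECUT2). It did so for 3 of 8 against iSCR Dox+ (FOXA1, FOXA2 and ONECUT2) and for 2 of 8 between iKD2 Dox- and iSCR Dox+ (FOXA2 and ONECUT2). For HNF4G, GATA4, GATA6 and NR5A2 a change of more than 2-fold was inside the interval in all 3 comparisons.

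**Figure D1:**
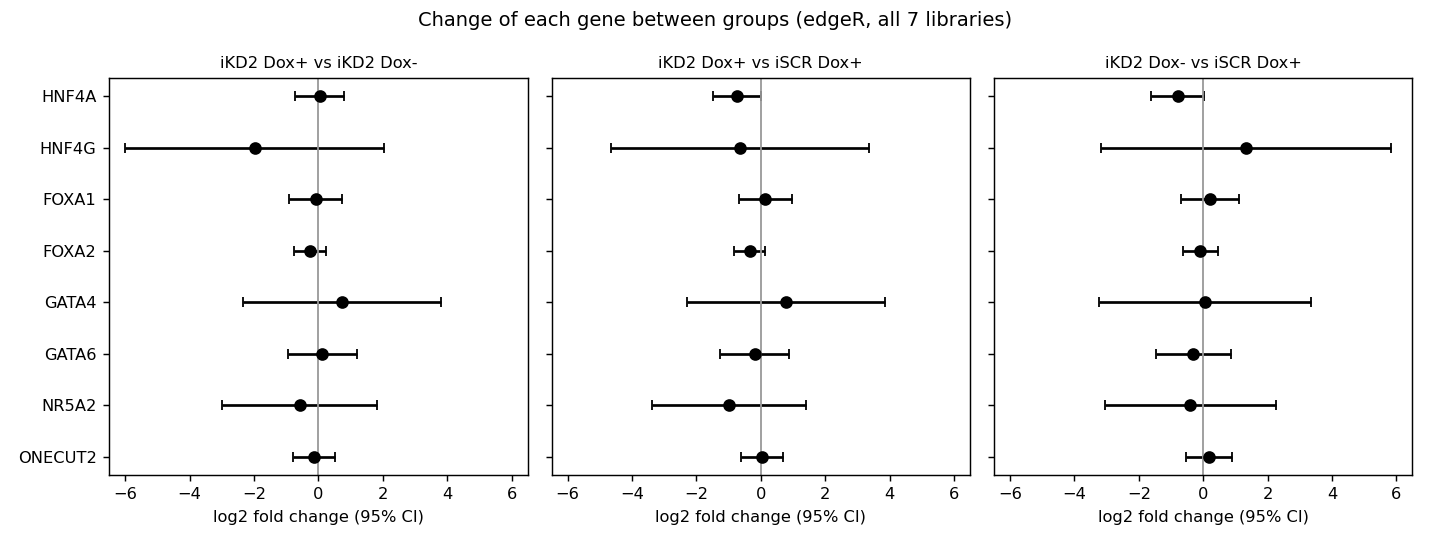
Log2 fold change of each of the 8 genes (points) with its 95% confidence interval (bars) in the 3 comparisons, from edgeR on all 7 libraries; the first group named in a panel title is higher to the right of 0. The interval excludes 0 only for HNF4A in iKD2 Dox+ vs iSCR Dox+ (-1.50 to -0.003), and the bars of HNF4G, GATA4 and NR5A2 are the widest.

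FOXA2 was the most abundant of the 8. This factor acts in definitive endoderm and later on islet genes. Levels were 324, 316 and 279 CPM in the libraries labelled iKD2 Dox+. They were 412 and 321 CPM in those labelled iKD2 Dox- and 284 and 493 CPM in the scramble line (iSCR Dox+). The lowest of the 7 was iKD2 Dox+ c and the highest iSCR Dox+ b, and all groups overlapped. On the log2 scale, the change was -0.26 (SE 0.23, 95% CI -0.75 to 0.23, adjusted p = 1) relative to iKD2 Dox-. Against iSCR Dox+ it was -0.34 (SE 0.23, 95% CI -0.83 to 0.14, adjusted p = 0.713). Between the control groups it was -0.09 (SE 0.26, 95% CI -0.62 to 0.45). FOXA2 (ENSG00000125798) lies on the minus strand of chromosome 20, from 22581005 to 22585455. It overlaps AL121722.1, annotated as protein-coding on the same strand and without a value in the count table used here. The part of AL121722.1 reads in the FOXA2 counts is therefore not known. The estimated counts of FOXA2 were whole numbers (within 0.001) in all 7 libraries.

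FOXA1, its close relative, was at a lower level with no change past the spread. The iKD2 Dox+ libraries held 56.6, 93.6 and 60.6 CPM, the iKD2 Dox- libraries 92.2 and 56.6 CPM and the iSCR Dox+ libraries 76.3 and 51.6 CPM. Each group held both a high and a low library, and all 3 groups overlapped. The change amounted, in log2 units, to -0.08 (SE 0.39, 95% CI -0.90 to 0.74) against iKD2 Dox-, 0.13 (SE 0.40, 95% CI -0.69 to 0.96) against iSCR Dox+ and 0.22 (SE 0.43, 95% CI -0.68 to 1.12) between the controls. FOXA1 (ENSG00000129514) is on the minus strand of chromosome 14, from 37589984 to 37596059, and overlaps TTC6 on the opposite strand, at 12.1 CPM before TMM scaling. The strand setting of the counting was not given in the sources used here, so reads of the overlapping exons may not be separable. The estimated counts of FOXA1 were whole numbers in every library, at the same tolerance as for FOXA2.

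HNF4A was lower in the iKD2 line than in the scramble line by values that did not overlap but missed the adjusted threshold. This receptor controls lipid, glucose and secretory genes in liver and islet. It held 67.7, 50.9 and 71.2 CPM with Dox and 74.5 and 48.3 CPM without Dox in the iKD2 line. In the scramble line the values were 112 and 100.3 CPM. All 5 iKD2 libraries, with or without Dox, lay below both iSCR libraries, and the 3 iKD2 Dox+ libraries lay inside the range of the 2 iKD2 Dox- libraries. Against iSCR Dox+, the log2 fold change was -0.75 in iKD2 Dox+ (SE 0.36, 95% CI -1.50 to -0.003, adjusted p = 0.699). In iKD2 Dox- it was -0.79 (SE 0.40, 95% CI -1.62 to 0.04, adjusted p = 0.826). Between iKD2 Dox+ and iKD2 Dox- the change was 0.04 (SE 0.36, 95% CI -0.71 to 0.80, adjusted p = 1). The comparisons with iSCR Dox+ share their 2 libraries, and neither passed after adjustment. Over all other tools, scalings and filters and with any 1 library left out, the log2 fold change of HNF4A between iKD2 Dox+ and iSCR Dox+ stayed between -0.85 and -0.62, with an adjusted p of 0.17 (DESeq2) or more. The estimated counts of HNF4A were not whole (by over 0.001) in 2 of 7 libraries (GATA6, 3 of 7). Kallisto can divide reads that fit more than 1 gene, and the part of this in these counts was not measured.

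Summed marker levels also differed between libraries, but most did not split by line as HNF4A did. Only the β-cell sum lay lower in every iKD2 library than in both iSCR libraries. The 10 β-cell markers, INS among them, summed to 25080 to 29078 CPM in iKD2 Dox+, 33356 to 36939 CPM in iKD2 Dox- and 39540 to 39809 CPM in iSCR Dox+. Most of these sums was INS and CHGA. Of the 10 markers in iKD2 Dox+, 8 had a negative and 2 a positive log2 fold change against iKD2 Dox-. Against iSCR Dox+ 7 were negative and 3 positive. The 8 hepatocyte markers summed to 1312 to 1723, 1690 to 2287 and 2047 to 2456 CPM, most of it TTR, which β-like cells express as well, and AHSG was at 0 in all libraries. ALB, the defining hepatocyte gene, was at 7.97 CPM or below. Other markers of the list were higher, with SERPINA1 at 177 to 400 CPM, FGB at 64.9 to 210 CPM and FGA at 21.6 to 56.3 CPM. APOA1 was at 14.7 to 40.8 CPM and AFP at 0 to 30.8 CPM. Between 1 and 3 of the 8 hepatocyte markers were at 0 in a library. Ductal markers (7 genes) summed to 1195 to 1230 CPM in iKD2 Dox+ but to 674 to 807 CPM in iKD2 Dox- and 711 to 928 CPM in iSCR Dox+, and CFTR was at 0 in 1 library. Mesenchyme markers (7 genes) summed to 701 to 1127, 289 to 406 and 632 to 694 CPM, and none was at 0. In bulk samples, fewer cells of a type and less RNA per cell cannot be told apart. The part of cell composition in the HNF4A values was not tested. The 8 intestinal markers summed to 166 to 250, 266 to 281 and 149 to 352 CPM in the 3 groups. VIL1 was at 98.9 to 191 CPM, MUC2 at 5.79 to 133 CPM and CDX2 at 7.93 to 52.1 CPM. CDX1 was at 4.48 to 20.8 CPM and ISX at 4.25 to 19.1 CPM. FABP2 was at 0 to 10.4 CPM, LGALS4 at 0 to 2.70 CPM, and SI at 0 in 6 of 7 libraries. The 6 enterochromaffin markers summed to 1137 to 1330, 1538 to 1662 and 1124 to 1348 CPM.

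HNF4A (ENSG00000101076, plus strand of chromosome 20, 44355700 to 44434596) is transcribed from a pair of promoters, a distal one used in islets and a proximal one used in liver. The count table adds both up, so the promoter behind a count could not be read from it. The distal one is shown because motifs of the ONECUT and GATA factors lie just before its start. The RefSeq (GRCh38.p14) starts are at 44355699 and 44401239. The stretch ends at the base before the first of these starts and is read 5′ to 3′ on the plus strand, with motif matches in capitals.
HNF4A distal promoter, chr20:44355646-44355698: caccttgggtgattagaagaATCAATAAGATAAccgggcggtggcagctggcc
In the distal promoter the capitals mark an ONECUT motif (ATCAATA, positions -33 to -27 from the start) followed directly by a GATA motif (AGATAA, -26 to -21), with no shared base. Each motif was searched on both strands in the 250 bases before 35116 RefSeq starts. The share of windows with a match was 1.55% for the ONECUT motif and 9.17% for the GATA motif. A match describes letters in the window and shows no binding.

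NR5A2, also named LRH-1, is a nuclear receptor of bile acid, cholesterol and exocrine pancreas genes. The iKD2 Dox+ libraries held 0.298, 12.9 and 15.1 CPM, the iKD2 Dox- libraries 16.6 and 11.8 CPM and the iSCR Dox+ libraries 17.0 and 20.3 CPM. The low library held 5 counts and the other 6 held 207 to 341. All 5 iKD2 libraries lay below the 2 iSCR libraries, as for HNF4A, but by less than the spread within iKD2 Dox+. In log2 units it differed by -0.99 (SE 1.15, 95% CI -3.38 to 1.41, adjusted p = 0.897) from iSCR Dox+ and by -0.59 (SE 1.16, 95% CI -2.99 to 1.81, adjusted p = 1) from iKD2 Dox-. Without iKD2 Dox+ a these values were -0.42 and -0.02. Between the control groups the value was -0.40 (SE 1.28, 95% CI -3.06 to 2.26). The low library, iKD2 Dox+ a, also had few genes detected (20179), and the part of this in the NR5A2 value was not tested. NR5A2 (ENSG00000116833) is on the plus strand of chromosome 1, from 200027602 to 200177424. The stretch before the second of its RefSeq starts, at 200042591, is shown because it holds matches to motifs of 2 of the families compared here.
NR5A2 second start, chr1:200042423-200042590: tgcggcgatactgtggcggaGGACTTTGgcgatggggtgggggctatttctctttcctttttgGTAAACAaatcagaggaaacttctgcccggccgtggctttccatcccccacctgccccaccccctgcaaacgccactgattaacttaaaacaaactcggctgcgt
From left to right the capitals mark an HNF4 motif (CAAAGTCC, positions -148 to -141) and a FOXA motif (TGTTTAC, -105 to -99), each on the opposite strand. The HNF4 motif was present in 1.02% and the FOXA motif in 2.98% of all windows. The search covered 7 starts from 5 of the 8 genes, and the remaining genes were not searched. The window before the first NR5A2 start held 2 matches to the GATA motif (-237 to -232 and -220 to -215). The windows of FOXA1, GATA6, ONECUT2 and the proximal HNF4A start held no match to the 5 motifs searched, which also included the NR5A motif CAAGGTCA, found in 1.14% of all windows.

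ONECUT2, a partner of ONECUT1 in early pancreas and liver development, showed no change past the threshold. The iKD2 Dox+ libraries held 122, 129 and 117 CPM, the iKD2 Dox- libraries 171 and 98.3 CPM and the iSCR Dox+ libraries 94.1 and 145 CPM. The 3 iKD2 Dox+ libraries lay between the 2 libraries of each control group. The estimated log2 fold change was -0.13 (SE 0.31, 95% CI -0.78 to 0.51) against iKD2 Dox-, 0.04 (SE 0.31, 95% CI -0.61 to 0.69) against iSCR Dox+ and 0.17 (SE 0.34, 95% CI -0.54 to 0.88) between the controls. ONECUT2 (ENSG00000119547) lies on the plus strand of chromosome 18, from 57435685 to 57491297.

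GATA6, whose mutations can prevent the pancreas from forming, was the more abundant of the GATA pair. The iKD2 Dox+ libraries held 37.4, 34.8 and 63.0 CPM, the iKD2 Dox- libraries 39.2 and 44.1 CPM and the iSCR Dox+ libraries 77.1 and 25.8 CPM. The highest and the lowest library were both iSCR Dox+, so the other 2 groups lay inside its range. On the log2 scale, the change was 0.12 (SE 0.52, 95% CI -0.96 to 1.19) against iKD2 Dox-, -0.19 (SE 0.51, 95% CI -1.25 to 0.88) against iSCR Dox+ and -0.31 (SE 0.56, 95% CI -1.48 to 0.87) between the controls. GATA6 (ENSG00000141448) is on the plus strand of chromosome 18, from 22169443 to 22202528.

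GATA4, which overlaps GATA6 in function in early pancreas, was close to undetected in 2 libraries and plain in others. The libraries labelled iKD2 Dox+ held 0.895, 11.9 and 32.3 CPM, those labelled iKD2 Dox- 13.9 and 4.13 CPM, and the scramble libraries 0.270 and 17.1 CPM. The 2 lowest values, from 15 and 4 counts, came from the 2 libraries with the fewest genes detected, and the part of library complexity in them was not tested. The change amounted, in log2 units, to 0.74 (SE 1.47, 95% CI -2.33 to 3.80) against iKD2 Dox-, 0.79 (SE 1.47, 95% CI -2.29 to 3.86) against iSCR Dox+ and 0.05 (SE 1.58, 95% CI -3.24 to 3.34) between the controls. Single libraries decided these values. Against iSCR Dox+ the change was 5.76 without iSCR Dox+ b (adjusted p = 0.152), -0.19 without iSCR Dox+ a and -0.46 without iKD2 Dox+ c. Against iKD2 Dox- it was -0.50 without iKD2 Dox+ c. The estimated counts of GATA4 were not whole, at the same tolerance, in 6 of 7 libraries, and the size of any part shared with other genes was not measured. GATA4 (ENSG00000136574) is on the plus strand of chromosome 8, from 11676959 to 11760002.

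HNF4G, the relative of HNF4A best known from intestine and kidney, was the least abundant of the 8. The iKD2 Dox+ libraries held 0.716, 3.80 and 2.91 CPM, the iKD2 Dox- libraries 5.98 and 13.5 CPM and the iSCR Dox+ libraries 4.32 and 3.46 CPM. The 2 iKD2 Dox- libraries were the highest of all, and the low end was again iKD2 Dox+ a, with 12 counts against 51 to 249 elsewhere. In log2 units it differed by -1.98 (SE 1.93, 95% CI -5.99 to 2.04, adjusted p = 1) from iKD2 Dox-, by -0.65 (SE 1.93, 95% CI -4.66 to 3.35) from iSCR Dox+ and by 1.32 (SE 2.17, 95% CI -3.19 to 5.83) between the controls. HNF4G (ENSG00000164749) lies on the plus strand of chromosome 8, from 75407914 to 75566843.

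**Figure D2:**
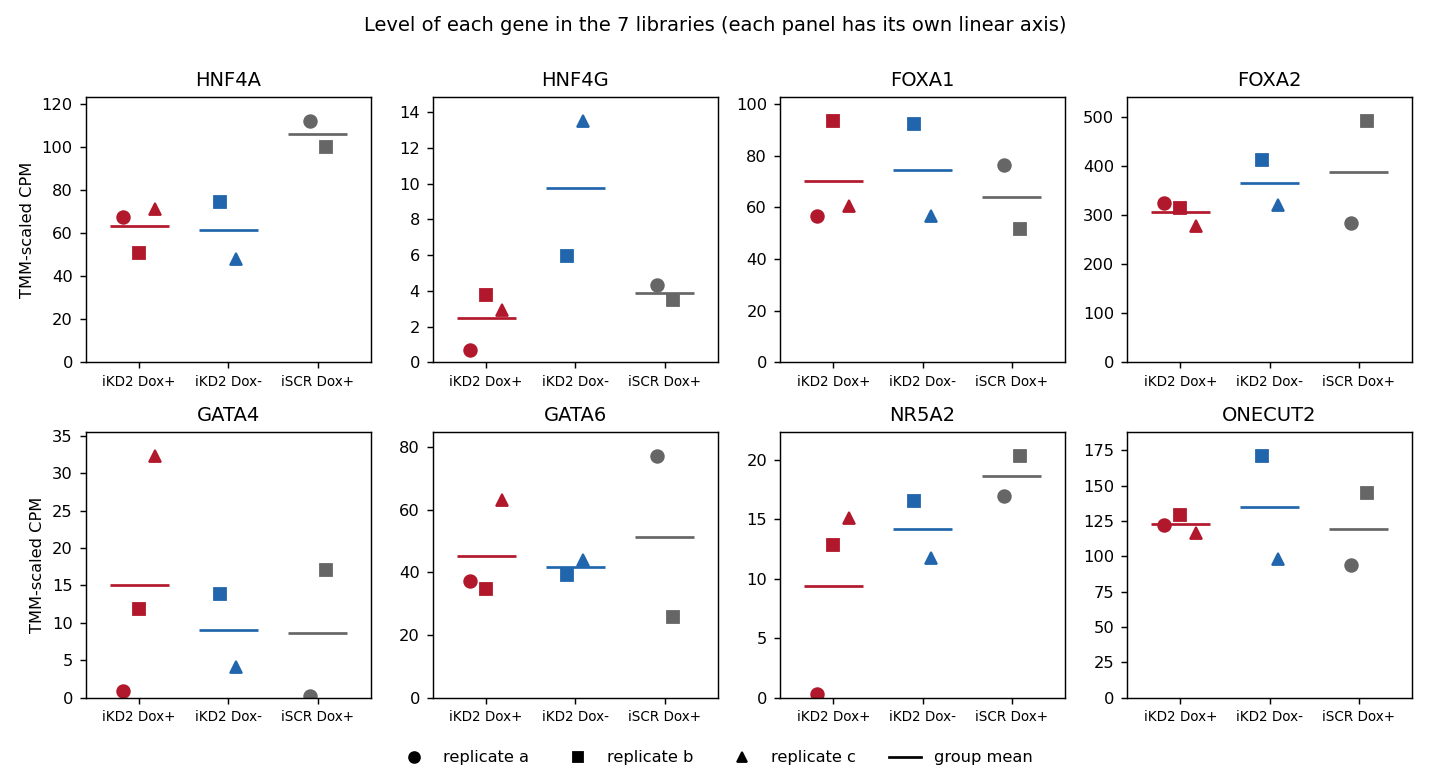
TMM-scaled CPM (vertical axes, linear and from 0, one scale per panel) of the 8 genes in the 7 libraries, by group (horizontal axes); each point is 1 library, its shape gives the replicate letter and the bar is the group mean. HNF4A lies at 48.3 to 74.5 CPM in the 5 iKD2 libraries and at 100.3 and 112 CPM in iSCR Dox+, and single libraries near 0 stand out for NR5A2 and GATA4.

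Groups that do not overlap were counted over the 8 genes and over all genes. In iKD2 Dox+ against iKD2 Dox-, 1 of 8 genes (HNF4G) was lower in every library, as were 11.6% of all genes, and 0 of 8 were higher in every library (8.72% of all genes). Against iSCR Dox+, 2 of 8 (HNF4A and NR5A2) were lower, against 9.23% of all genes, and 0 of 8 were higher (11.3%). Between iKD2 Dox- and iSCR Dox+, 2 of 8 (HNF4A and NR5A2) were lower (13.2% of all genes) and 1 of 8 (HNF4G) was higher (19.9%). With 8 genes, these counts are near the background. The median log2 fold change of the 8 genes was -0.11, -0.27 and -0.02 in the 3 comparisons, and that of all genes was 0.01, 0.08 and 0.04.

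Compared per length, the order of the 8 genes was as follows. Levels were divided by the kilobases of exon that all transcripts of a gene cover together, which understates a gene with many unused exons. FOXA2 was at 133 CPM per kb (mean of 7 libraries, range 107 to 189) and FOXA1 at 17.5 (13.0 to 23.5). GATA6 followed at 11.6 (6.54 to 19.5), HNF4A at 10.3 (6.60 to 15.4) and ONECUT2 at 7.71 (5.80 to 10.5). GATA4 was at 2.59 (0.061 to 7.26), NR5A2 at 1.78 (0.039 to 2.69) and HNF4G at 1.03 (0.149 to 2.81). Only FOXA2 stood clear of its neighbour in all libraries, and each other gene overlapped the next in the order. By CPM alone, FOXA2 was higher than 98.8% of the genes tested, ONECUT2 than 94.0%, HNF4A than 88.1%, FOXA1 than 87.1% and GATA6 than 79.9%. NR5A2 (54.4%), GATA4 (51.2%) and HNF4G (37.0%) lay around or below the middle.

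The spread between libraries of the same group depended on the level. The within-group SD of log2 CPM was 0.29 for HNF4A, 0.32 for FOXA2, 0.36 for ONECUT2, 0.42 for FOXA1 and 0.65 for GATA6. The value was 2.73 for GATA4 and 2.09 for NR5A2, against a median of 1.18 over genes of like level. In that bin 93.5% of genes had a smaller SD than GATA4 and 80.9% a smaller SD than NR5A2. Of the genes at the level of HNF4A, 20.3% had a smaller SD (median 0.42). HNF4G had an SD of 0.95, and 10.5% of genes at its level had a smaller one (median 2.16). FOXA2 went the other way, as 71.6% of genes at its level had a smaller SD (median 0.25). The highest library exceeded the lowest by 1.77-fold for FOXA2 and 2.33-fold for HNF4A, but by 68.1-fold for NR5A2 and 119-fold for GATA4.

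**Figure D3:**
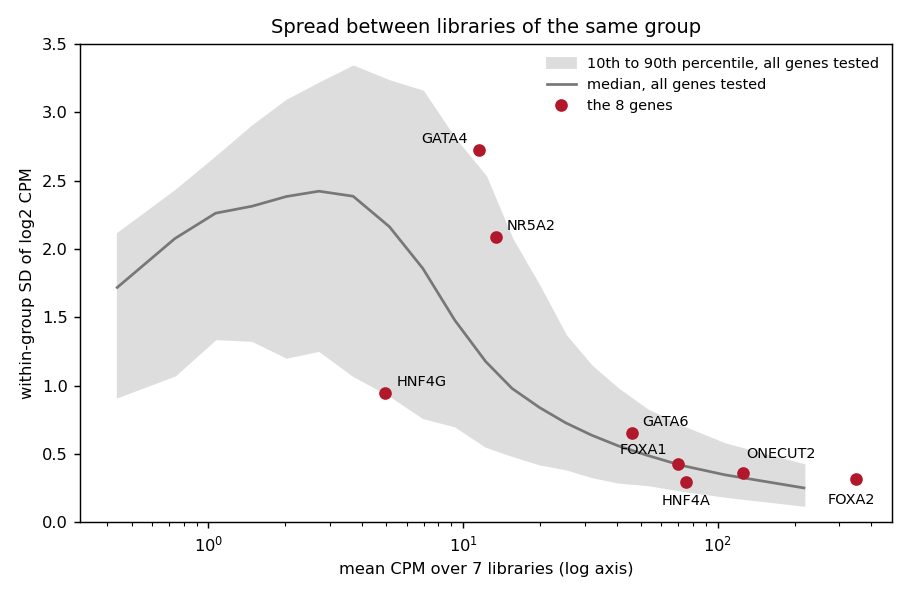
Within-group SD of log2 CPM (vertical axis) against mean CPM over the 7 libraries (horizontal axis, log scale); red points are the 8 genes, and the grey line and band give the median and the 10th to 90th percentile of all 22926 genes tested, in 20 bins of equal size. GATA4 (2.73) lies above the band, NR5A2 (2.09) in its upper part, and HNF4A (0.29) in its lower part.

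Other genes of the same families were then examined. None of the 8 examined was called in any comparison (6 were tested). Their log2 fold change was positive for 3 of 6 against iKD2 Dox-, as it was for 11621 of all 22926 genes. Against iSCR Dox+ it was positive for 6 of 6, and for 12134 of 22926 genes. The median over all genes was 0.01 and 0.08. GATA2 and FOXA3, at or near 0 in iSCR Dox+ a, passed the filter on low counts through the iKD2 libraries. Their positive sign against iSCR Dox+ is therefore no evidence of a shift, and GATA5 was at 0.08 (SE 3.37). FOXA2 made up 80.7% to 92.9% of the FOXA family's CPM per kb, and FOXA3, a liver-enriched member, at most 7.48%. HNF4A made up 70.1% to 98.4% of the HNF4 pair, the lowest share being in iKD2 Dox- c, where HNF4G was highest. The ONECUT family was shared between ONECUT2 (32.2% to 74.5%) and ONECUT1 (20.7% to 64.9%), with ONECUT3 at 10.3% or less. ONECUT1 had 23.0, 36.3 and 54.8 CPM (iKD2 Dox+), 22.1 and 41.7 CPM (iKD2 Dox-), and 14.2 and 9.53 CPM (iSCR Dox+). Every iKD2 library was thus above both iSCR libraries, with a log2 fold change of 1.68 in iKD2 Dox+ against iSCR Dox+ (SE 0.67, adjusted p = 0.695). ONECUT3 was at 0.675 to 16.1 CPM and FOXA3 at 0 to 32.2 CPM over the 7 libraries. NR5A1, the steroidogenic relative of NR5A2, had 58 counts in iKD2 Dox- c and 0 in the other 6 libraries.

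In the GATA family, GATA3, a factor known from T cells, trophoblast and mammary gland, took the largest share in 4 of 7 libraries. Per kb it made up 44.1% to 67.7% of the family in iKD2 Dox+, 12.7% and 35.7% in iKD2 Dox-, and 40.9% and 60.8% in iSCR Dox+. GATA6 took 24.7% to 68.7% and GATA4 0.18% to 15.4%. GATA3 had 81.5, 63.7 and 71.7 CPM in the libraries labelled iKD2 Dox+, 27.6 and 7.11 CPM in iKD2 Dox-, and 48.4 and 55.4 CPM in the scramble line. The 3 groups did not overlap, with iKD2 Dox- lowest and iKD2 Dox+ highest. The log2 fold change of iKD2 Dox+ was 2.06 against iKD2 Dox- (SE 0.54, 95% CI 0.93 to 3.19) but the adjusted p was 0.446. Against iSCR Dox+ it was 0.48 (SE 0.51, adjusted p = 0.874). Ductal and mesenchyme markers were also lowest or low in iKD2 Dox- and highest in iKD2 Dox+, by the sums given above, and their part in the GATA3 values was not tested.

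GATA2, a factor of blood and endothelium, had 7.22, 11.9 and 11.9 CPM (iKD2 Dox+) and 0.729 and 9.34 CPM (iKD2 Dox-). In iSCR Dox+ it had 1 count in a and 0 in b. The ratio of counts per depth in iKD2 Dox+ over iSCR Dox+ was 308 (95% interval 55.1 to 12200, counting error only), and the edgeR test gave an adjusted p of 0.627. GATA5 was at 0 in 3 libraries and at most 3.26 CPM. GATA1 had 0 counts in all 7 libraries, which allows up to 3 counts in each.

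**Figure D4:**
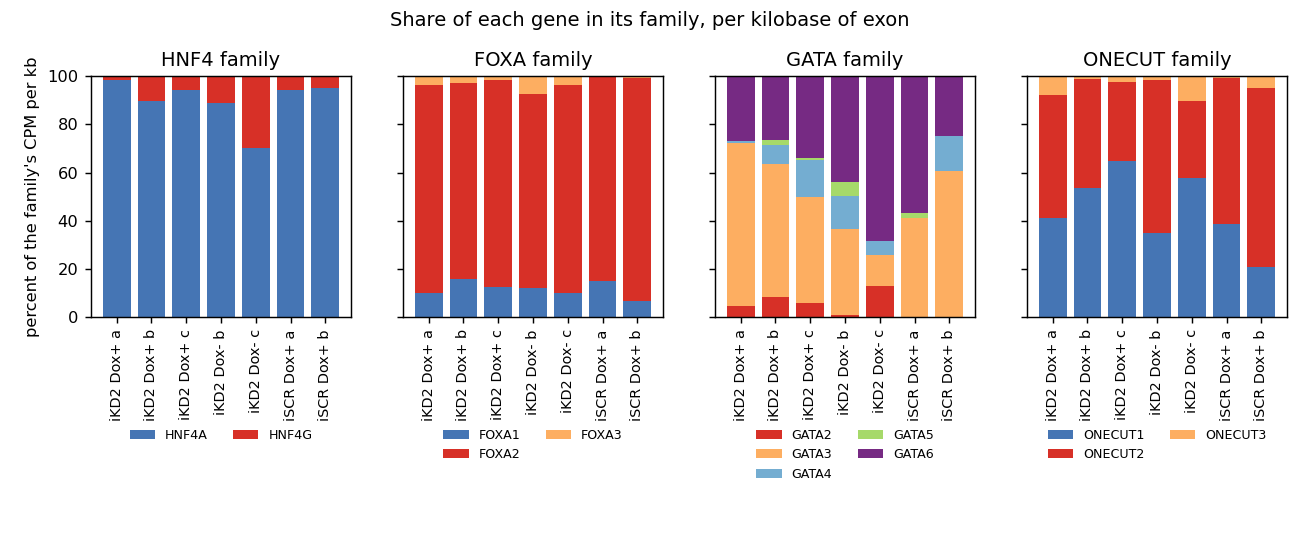
Share of each gene in the summed CPM per kilobase of its family (vertical axis, percent) in each of the 7 libraries (horizontal axis). FOXA2 holds 80.7% to 92.9% of its family in all libraries, while the GATA and ONECUT panels change from library to library, GATA3 ranging from 12.7% to 67.7%.

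A list of 12 other transcription factors of endoderm and pancreatic progenitors was examined next, and 0 of 12 were called in each comparison. PDX1, the master factor of pancreas and β-cells, had 70.9, 90.03 and 123 CPM (iKD2 Dox+), 133 and 154 CPM (iKD2 Dox-), and 152 and 189 CPM (iSCR Dox+). Every iKD2 Dox+ library was below every control library, with log2 fold changes of -0.60 against iKD2 Dox- (SE 0.30, adjusted p = 1) and -0.85 against iSCR Dox+ (SE 0.30, adjusted p = 0.627). SOX9, which marks progenitors and ducts, went the other way, at 178, 202 and 150 CPM in iKD2 Dox+, 89.6 and 71.9 CPM in iKD2 Dox-, and 78.0 and 125 CPM in iSCR Dox+. Its log2 fold changes, in the same order, were 1.13 (SE 0.31, adjusted p = 0.550) and 0.80 (SE 0.31, adjusted p = 0.679). PTF1A, an exocrine progenitor factor, had 0 counts in iKD2 Dox+ and iSCR Dox+ and 75 and 12 counts in iKD2 Dox-. Its level in iKD2 Dox- was at least 37.5-fold higher than the floor of 3 counts over the iKD2 Dox+ group, a bound that covers counting error only. It was carried by iKD2 Dox- b, and from iKD2 Dox- c alone the bound was 10.9-fold. The median log2 fold change of the list was -0.03 against iKD2 Dox- and -0.07 against iSCR Dox+.

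Cofactors of the HNF, GATA and nuclear receptor proteins gave 0 of 11 calls in each comparison, with a median log2 fold change of 0.08 both against iKD2 Dox- and against iSCR Dox+. PCBD1, a dimerization cofactor of homeodomain proteins, was at 18.0 to 30.7 CPM in iKD2 Dox+, 37.7 and 42.6 CPM in iKD2 Dox-, and 11.8 and 69.3 CPM in iSCR Dox+. Its log2 fold change against iKD2 Dox- was -0.73 (SE 0.64, adjusted p = 1). PPARGC1A, a coactivator of HNF4A in the fasted liver, had 39.3, 11.6 and 7.58 CPM (iKD2 Dox+), 22.2 and 19.8 CPM (iKD2 Dox-), and 3.58 and 1.53 CPM (iSCR Dox+). It was higher in all 5 iKD2 libraries than in both iSCR libraries, opposite to HNF4A, with log2 fold changes of 2.93 in iKD2 Dox+ (SE 1.10, adjusted p = 0.673) and 3.04 in iKD2 Dox- (SE 1.15, adjusted p = 0.826). NCOA1, a general nuclear receptor coactivator, was at 47.0 to 85.6 CPM in iKD2 Dox+, 61.0 and 86.6 CPM in iKD2 Dox- and 91.3 and 103 CPM in iSCR Dox+ (the change against the last was -0.68 in log2 units, SE 0.37, adjusted p = 0.699). ZFPM2, a GATA4 partner, came mainly from iKD2 Dox+ c (13.7 CPM) and iSCR Dox+ a (8.51 CPM) and was at 0.632 CPM or less elsewhere.

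Of 20 genes known as targets of these factors in liver, intestine or islet, 17 were tested and 0 were called. Against iKD2 Dox- 11 of 17 had a negative and 6 a positive log2 fold change (median -0.17, against 0.01 over all genes). Against iSCR Dox+ the numbers were again 11 and 6 (median -0.41, against 0.08). TTR, the thyroid hormone carrier transthyretin, had 890, 1371 and 1016 CPM (iKD2 Dox+), 1784 and 1246 CPM (iKD2 Dox-), and 1714 and 1641 CPM (iSCR Dox+). Its log2 fold change was -0.62 against iSCR Dox+ (SE 0.18, adjusted p = 0.466) and -0.47 against iKD2 Dox- (SE 0.18, adjusted p = 1). SERPINA1, the protease inhibitor α1-antitrypsin, was at 203, 210 and 177 CPM in iKD2 Dox+, at 327 and 303 CPM in iKD2 Dox-, and at 400 and 270 CPM in iSCR Dox+. It was lower in every iKD2 Dox+ library than in any control library, by 0.68 on the log2 scale against iKD2 Dox- (SE 0.23, adjusted p = 1) and 0.77 against iSCR Dox+ (SE 0.23, adjusted p = 0.466). DLK1, a Notch-like membrane protein of islet and fetal cells, was at 1331 to 1740 CPM in iKD2 Dox+, 1589 and 2064 CPM in iSCR Dox+ and 2338 and 2036 CPM in iKD2 Dox- (against which the log2 fold change was -0.45, SE 0.16, adjusted p = 1).

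Noncoding RNAs beside the 8 genes were also read. LINC00261, the neighbour of FOXA2, had 127, 181 and 257 CPM (iKD2 Dox+), 234 and 245 CPM (iKD2 Dox-), and 164 and 187 CPM (iSCR Dox+), and the groups were not called different. HNF4A-AS1 and GATA6-AS1 did not pass the filter, with at most 3 and 11 counts in a library.

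Finally, genes with patterns most like each of the 7 genes at 10 CPM or more were listed by Pearson's r of log2 CPM over the 7 libraries, among 8584 or 8585 genes with a mean of at least 20 CPM. With 7 points and so many genes, high values occur for every pattern, and libraries share depth and composition. For HNF4A these were CCDC126 (r = 0.986), CHTOP (0.974) and ZNF260 (0.973), and for FOXA1 they were ASIC1 (0.989), UBE4A (0.971) and NUS1 (0.957). For FOXA2 they were IER3IP1 (0.976), RNF11 (0.953) and MOB1B (0.946), and for ONECUT2 CREB3 (0.967), ZDHHC14 (0.957) and ZNF281 (0.949). GATA4 was most like R3HDM1 (0.984) and MED17 (0.982), and GATA6 most like TLN2 (0.971), ARHGAP12 (0.966) and NUP98 (0.960). NR5A2, whose pattern is set by 1 library near 0, was most like TMEM132B (0.996), PRPF31 (0.994) and PDZK1 (0.994), and 133 genes exceeded 0.9. For the other 6 genes between 14 and 52 genes exceeded 0.9. Among their 28 pairs, r ranged from -0.80 (FOXA2 with GATA6) to 0.76 (HNF4G with NR5A2, both lowest in iKD2 Dox+ a), and it was 0.74 for FOXA2 with ONECUT2.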

How the data were processed

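Sorted insulin-expressing β-like cells from H1 were profiled by stranded total-RNA sequencing, and groups were taken from the sample labels. The table deposited by the authors holds estimated counts of genes, made with fastp, Kallisto and tximport and not scaled for depth. Versions, genome build, annotation and strand setting were not given in the sources used here. The study's methods describe TMM and voom. Of 66025 gene IDs, 59369 had a name in the name table used here. Coordinates and exon lengths are from GENCODE 29 (GRCh38).

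Here, counts were rounded, filtered with filterByExpr and TMM-scaled. They were tested with edgeR 4.0.16 (robust quasi-likelihood, R 4.3.3), with 7 libraries in 1 fit, no covariate and Benjamini-Hochberg adjustment over 22926 genes. SE is the log2 fold change over the root of F. Scripts were tested on simulated data. The 8 genes, the other lists, the tests and most alternatives were chosen with earlier results of these data known. The alternative without both libraries with the fewest genes was added after seeing the values.

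Named are the 8 genes, METTL14, INS and family members at 1 CPM or more in 2 libraries. From the other lists, genes past an adjusted p of 0.05 are named, with the 2 lowest p-values of progenitor factors, cofactors and targets in each comparison with iKD2 Dox+, and up to 3 genes of like pattern. Some items are not reported here. Other names (NR5A1, GATA1, LINC00261 and its like, and marker genes) were chosen after their values were seen. Correlations used log2 CPM with a prior count of 2. Other tools were DESeq2 1.42.0 and limma 3.58.1. Intervals and floors cover counting error only where so stated.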

Additional observations from a re-analysis of the deposited data

How the results depend on the processing

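No gene of the 8 was called under any alternative: DESeq2, limma voom, other scaling factors, other filters, only the groups compared, a replicate block, each library left out, and the 5 libraries other than iKD2 Dox+ a and iSCR Dox+ a. The number of all genes called moved far more, from 9, 6 and 3 in the 3 comparisons to 225, 824 and 495 with DESeq2, to 51, 66 and 32 with no filter beyond 1 count, to 115, 544 and 445 without iSCR Dox+ b, to 101, 186 and 100 without iSCR Dox+ a, and to 143, 296 and 223 in the 5 libraries. The shares of all genes printed beside the 8 genes move with these counts. The cause was not tested. HNF4A in both comparisons with iSCR Dox+, HNF4G in all 3, NR5A2 in both with iSCR Dox+ and FOXA2 against iKD2 Dox- kept their direction. Small log2 fold changes turned, and so did the larger ones of GATA4 (0.74 against iKD2 Dox- and 0.79 against iSCR Dox+ in the main fit). Leaving out 1 library, against iKD2 Dox- HNF4A ranged from -0.24 to 0.38, FOXA1 from -0.40 to 0.31, GATA4 from -0.50 to 1.86, GATA6 from -0.21 to 0.27 and ONECUT2 from -0.48 to 0.31. Against iSCR Dox+, FOXA1 ranged from -0.13 to 0.44, FOXA2 from -0.69 to 0.11, GATA4 from -0.46 to 5.76, GATA6 from -0.77 to 0.81 and ONECUT2 from -0.24 to 0.38. For iKD2 Dox- against iSCR Dox+, FOXA1 ranged from -0.18 to 0.53, FOXA2 from -0.43 to 0.37, GATA4 from -1.07 to 5.03, GATA6 from -0.89 to 0.69 and ONECUT2 from -0.28 to 0.52. In the 5 libraries, HNF4A was at -0.01 and FOXA1 at 0.05 against iKD2 Dox-, GATA6 at 0.92 and ONECUT2 at -0.24 against iSCR Dox+, and GATA4 at -0.93, GATA6 at 0.69 and ONECUT2 at -0.11 between the controls. With limma voom, GATA4 was at -0.13 against iKD2 Dox-. Same-lettered libraries did not deviate together (correlations of deviations from -0.05 to 0.02), so the letters were not taken as pairs. With all letters as a replicate block, HNF4A was at 0 and GATA6 at -0.05 against iKD2 Dox-, and GATA4 at -0.57 between the controls, while NR5A2 moved to -2.97 against iSCR Dox+ and -2.47 between the controls. With a block for only iKD2 b and c, FOXA1 was at 0.06 and NR5A2 at 0. The block gave 18, 15 and 8 calls over all genes (55 for only b and c in iKD2 Dox+ against iKD2 Dox-). The median change of all genes, 0.01 to 0.08, moved to -0.10 and 0.17 with limma voom and to 0.49 without iSCR Dox+ b.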
